A study of Rattus norvegicus with 15 samples.

Results

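Messenger RNA of Rat1a cells carrying mouse MYC with the K323R substitution was compared with that of Rat1a cells carrying wild-type mouse MYC. The comparison used 6 of the 15 libraries of the study, 3 of the K323R line (R323) and 3 of the wild-type line (WT), chosen by their labels. Rat1a is an established, immortalized rat fibroblast line that keeps its own Myc gene, and both lines were stable and grown attached in DMEM with serum. The other 9 libraries, 3 each from an empty-vector line (EV) and from the K149R (R149) and K158R (R158) lines, entered the same fit and serve here as reference levels. Each construct was sequenced from 1 stable line, so an effect of the substitution and a peculiarity of the line cannot be told apart, and whether a line was 1 clone is not stated. The labels name biological replicates without saying how they were separated, so p-values measure only the spread between these cultures.

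MYC is a transcription factor that pairs with MAX and binds E-box elements at many promoters, where it recruits lysine acetyltransferases. The same enzymes acetylate MYC itself on several lysines. Arginine keeps the positive charge of lysine but cannot be acetylated. The lysine replaced in K323R lies in the short basic stretch that directs MYC into the nucleus. Rat1a fibroblasts are widely used to score transformation by MYC, and the series asks how the acetylated lysines bear on gene-selective regulation.

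The 6 libraries held between 18.3 and 38.1 megacounts (Mcounts) in genes, and 13676 of 32545 genes passed the filter on low counts. Genes are listed by rat Ensembl identifier, and 0 of these identifiers could be paired with a symbol in the reference used here. The level of Myc, the fibroblast markers and all pathway lists were therefore not read, and the introduced gene was not used to check which line is which. Among called genes with a mean of at least 1 CPM over the 6 libraries and no overlap between the groups, the 2 largest rises and 2 largest falls are given by identifier, and the other genes are described as groups or by their level. Within WT, replicates 2 and 3 correlated at 0.993 across genes, on log2 CPM (counts scaled for library size and composition), and replicate 1 at 0.984 and 0.981 with them. Within R323, replicates 2 and 3 correlated at 0.996, and replicate 1 at 0.984 and 0.983. Replicate 1 thus stood apart from the other libraries in both lines, and results are given below without it where it mattered. R149, which shares the fit, also had a replicate 1 unlike the others. With all libraries thinned to the smallest total, it held 13677 detected genes, against 15340 and 15374 in R149 replicates 2 and 3.

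R323 and WT had closely similar transcriptomes, with a correlation of 0.990 between their mean log2 levels. The median fold change over the 13676 genes tested was -0.0024 on the log2 scale, and 95% of genes lay between -0.93 and 0.64. The median size of the difference between mean log2 levels was 0.125 for R323 and WT, 0.164 for R323 and R149, 0.188 for R323 and R158, and 0.315 for R323 and EV. For 10990 genes, 80.4% of those with an interval, the 95% interval of the difference between R323 and WT lay wholly within 2-fold. That share was 98.7% in the most abundant quartile of genes and 33.3% in the least abundant, so moderate differences among rare RNAs were often not resolved.

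Against this background a small set of genes differed. With edgeR's quasi-likelihood test and an adjusted p below 0.05, 122 genes (0.892% of those tested) were called, 45 higher in R323 (0.329%) and 77 lower (0.563%). At an unadjusted p below 0.05 there were 1120. The falls were larger than the rises. The median log2 fold change was -2.08 among the lower genes and 0.97 among the higher genes. At least 2-fold change was found for 86 genes (0.629% of tested genes), 64 lower (0.468%) and 22 higher (0.161%). At least 8-fold change was found for 32 lower genes and 1 higher gene. The groups did not overlap for any of the 77 lower genes, or for 44 of the 45 higher genes, beside 13.7% of all tested genes without overlap in either direction.

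**Figure D1:**
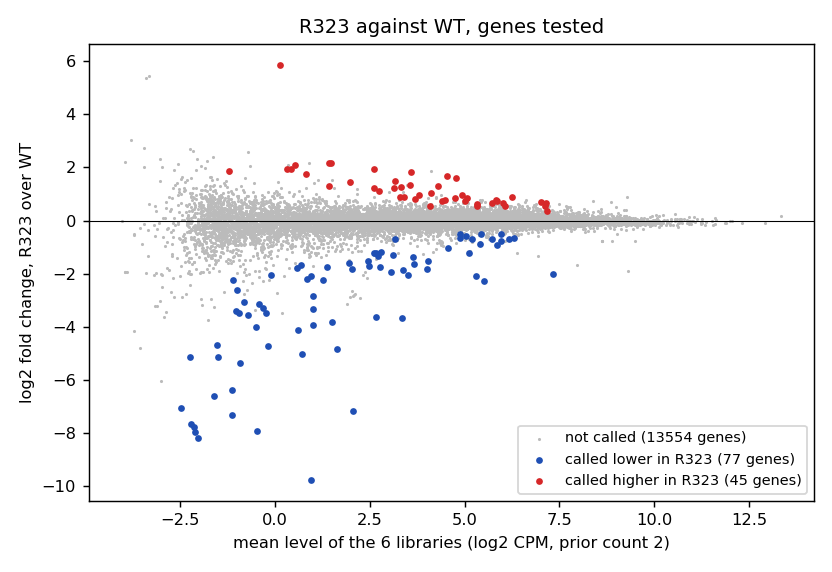
Each point is 1 of the 13676 genes tested, with the mean level of the 6 libraries on the x axis (log2 CPM) and the log2 fold change of R323 over WT on the y axis. The 77 genes called lower in R323 (blue) reach much further from 0 than the 45 called higher (red), and most of the large falls are genes of low level.

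Called genes were mostly of low or middling level. The quartile of genes with the lowest mean over all lines (median 1.06 CPM) held 34 of the lower and 10 of the higher genes. The next quartile (median 12.3 CPM) held 26 and 17, the third held 12 and 13, and the most abundant (median 126 CPM) held 5 and 5. Summed over the 77 lower genes, the level was 1691, 2017 and 2134 CPM in WT replicates 1 to 3, and 737, 762 and 759 CPM in those of R323. The 45 higher genes summed to 1165, 1044 and 1095 CPM in WT and to 1825, 1898 and 1907 CPM in R323. Both sums separated the lines without overlap, which follows from how the genes were chosen.

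The count of called genes changed when 1 library was left out, which also left fewer replicates in its line. Without WT replicate 1 it was 242. It was 61 without WT replicate 2, 64 without WT replicate 3, 65 without R323 replicate 2 and 62 without R323 replicate 3. The count of genes with at least 2-fold change was 157 without WT replicate 1, and 53, 55, 55 and 52 without those other libraries in the same order. Without R323 replicate 1, 114 genes were called, 91 of them among the 122, and 81 changed at least 2-fold. With the replicate number as a block 2.36% of tested genes were called, 144 higher (1.05%) and 179 lower (1.31%), of which 136 changed at least 2-fold. All 122 genes called without the block were called with it, in the same direction. The 99 further higher genes had a median log2 fold change of 0.53, and 7 of them reached 2-fold. The 102 further lower genes had a median of -0.87, and 43 of them reached 2-fold.

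A stable core was smaller. Of the 122 genes, 49 were called in the same direction whichever of the 6 libraries was left out, 14 higher and 35 lower, and 45 of the 49 changed at least 2-fold. The 35 lower genes of this core had a median level of 7.48 CPM in WT and 0.492 CPM in R323. The 14 higher genes had medians of 6.39 CPM in WT and 14.8 CPM in R323.

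Among the lower genes the level in R323 often approached silence. Of the 77, 32 had a mean of at least 1 CPM in WT and under 1 CPM in R323, beside 210 genes of all those tested. The median level of the 32 was 2.71 CPM in WT and 0.196 CPM in R323, with 1.84 CPM in EV, 0.347 CPM in R149 and 1.08 CPM in R158. The mean was under 1 CPM in EV for 14 of the 32 as well, in R149 for 27 and in R158 for 15. For 5 of the 77, no count was seen in any R323 library, where the WT libraries together held between 47 and 97. Set against a floor of 3 counts over the R323 libraries, these 5 were at least 12.2-fold to 25.1-fold lower, covering counting error only. The opposite crossing of 1 CPM was rarer. Of the 45 higher genes, 5 had under 1 CPM in WT and at least 1 CPM in R323, beside 105 of all tested genes.

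ENSRNOG00000052880 showed the largest fall from WT to R323, though WT was the line that stood apart. Its level was 17.9, 66.5 and 65.7 CPM in WT replicates 1, 2 and 3, and 0, 0.117 and 0 CPM in those of R323, which rest on 4 counts in all. The other lines held 4 or 5 counts each, and the mean was 0.0397 ± 0.0349 CPM in EV, 0.0201 ± 0.0189 in R149 and 0.074 ± 0.0643 in R158 (SD, n = 3). The log2 fold change of R323 over WT was -9.76 ± 0.69 (SE), with an edgeR adjusted p of 2.0e-06. Pooled over replicates, WT exceeded R323 866-fold, with a 95% counting interval from 338-fold to 3179-fold. The difference from EV was not called in R323 (edgeR adjusted p 0.948). With limma-voom the adjusted p of R323 against WT was 0.0513, the highest over 20 alternatives, whose lowest was 1.0e-16.

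ENSRNOG00000001304 was present in every line but R323. It stood at 3.21, 8.33 and 10.8 CPM in WT, and at 0, 0.0583 and 0 CPM in R323, where 2 counts were seen in all. The mean was 5.35 ± 0.695 CPM in EV, 0.857 ± 0.281 in R149 and 2.88 ± 0.893 in R158 (SD, n = 3). All 3 R323 libraries lay below all 12 others. The log2 fold change over WT was -7.91 ± 0.70 (SE; edgeR adjusted p 1.7e-05). Against R149 it was -4.82 ± 0.83 (edgeR adjusted p 0.00834) and against R158 -6.53 ± 0.76 (edgeR adjusted p 4.2e-04). Pooled counts gave a ratio of WT to R323 of 254, with a 95% counting interval from 70.1 to 2105. Fitted fold changes of these rare RNAs depend on the small value edgeR adds and are not bounds.

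ENSRNOG00000025151 showed the largest rise. No count was seen in any EV library, and WT replicates 1 to 3 stood at 0.163, 0.0589 and 0.128 CPM, on 11 counts in all. The level in R323 was 6.48, 6.62 and 7.92 CPM. R149 and R158 lay between, at 0.608 ± 0.502 and 0.949 ± 0.335 CPM (SD, n = 3), and R149 replicate 1 held 1 count. The log2 fold change of R323 over WT was 5.86 ± 0.75 (SE; edgeR adjusted p 0.00113). Over R149 it was 3.44 ± 0.59 (edgeR adjusted p 0.0114) and over R158 2.93 ± 0.61 (edgeR adjusted p 0.0408). Pooled over replicates, R323 exceeded WT 59.6-fold (95% counting interval 33.0-fold to 120-fold), and it was at least 195-fold higher than EV against a floor of 3 counts over the EV libraries.

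ENSRNOG00000033220 was the second largest rise under the rule. Its level was 1.01, 1.35 and 1.58 CPM in WT and 7.84, 5.10 and 4.69 CPM in R323. The other lines stood near WT, at 1.84 ± 0.174 CPM in EV, 1.83 ± 0.0633 in R149 and 1.49 ± 0.411 in R158 (SD, n = 3). All 3 R323 libraries lay above all 12 others. The log2 fold change was 2.17 ± 0.26 over WT (SE; edgeR adjusted p 4.0e-04), 1.68 ± 0.25 over R149 (edgeR adjusted p 0.00318) and 1.96 ± 0.27 over R158 (edgeR adjusted p 0.00191). WT did not differ from EV at this gene by the edgeR threshold (adjusted p 0.191).

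**Figure D2:**
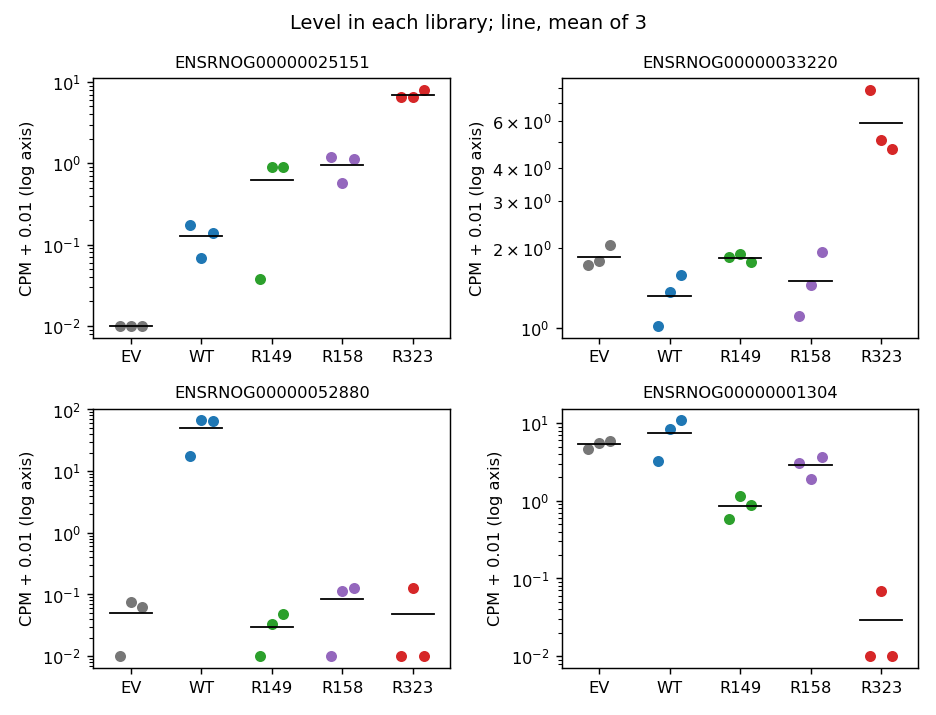
Each panel plots 1 gene, with the 5 lines on the x axis and CPM plus 0.01 on a log y axis, points for the 3 replicates in order and a line for their mean. ENSRNOG00000052880 is high in WT alone, ENSRNOG00000001304 is near 0 in R323 alone, and ENSRNOG00000025151 and ENSRNOG00000033220 are highest in R323.

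The position of EV shows what kind of level the called genes had without added MYC. Contrasts with EV share the WT and R323 libraries with the contrast that chose the genes, so their values are set side by side as a description. Among the 77 lower genes the median log2 fold change over EV was 0.35 in WT and -1.52 in R323. Median levels were 7.30 CPM in EV and 9.59 in WT, against 1.09 in R323, 1.67 in R149 and 2.88 in R158. WT had the highest mean of the 5 lines for 43 of the 77 and EV for 27, beside 11.2% and 35.5% of all tested genes. R323 had the lowest mean for 46 of the 77, beside 16.2% of tested genes. The 77 were chosen as lower in R323 than in WT, which by itself favours WT as highest and R323 as lowest.

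The lower genes fell into 3 main classes. Each share in brackets is for the single call before it, here and for the higher genes, and not for the class. In the first, 20 genes were called higher in WT than in EV (12.6% of all tested genes were) and not called between R323 and EV. Their median levels were 0.424 CPM in EV, 10.8 in WT, 0.491 in R323, 0.559 in R149 and 1.10 in R158, so WT stood far above every other line. In the second, 33 genes were called lower in R323 than in EV (15.7% of tested genes were) and not called between WT and EV. Their medians were 8.33 CPM in EV and 9.78 in WT, and lower in the mutants, at 3.02 in R323, 3.60 in R149 and 4.19 in R158. In the third, 14 genes were called lower than EV in WT (14.1% of tested genes were) and in R323. They stood at a median of 11.98 CPM in EV, 5.29 in WT and 0.690 in R323, the lowest of the lines, with 2.40 in R149 and 2.75 in R158. The remaining 10 of the 77 comprised 5 genes higher than EV in both lines, 4 called higher in WT and lower in R323, and 1 called in neither.

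Among the 45 higher genes the median log2 fold change over EV was -0.32 in WT and 0.71 in R323. The largest class, 20 genes, was called higher in R323 than in EV (14.1% of tested genes were) and not called in WT. Its median levels were 10.4 CPM in EV, 12.1 in WT, 16.7 in R149, 17.4 in R158 and 30.8 in R323, which stood apart. A further 11 genes were called lower than EV in WT (14.1% of tested genes were) and not called in R323. Their medians were 24.4 CPM in EV, 12.7 in WT, 17.1 in R149, 12.9 in R158 and 27.8 in R323. Another 6 genes were called lower than EV in WT (14.1%) and in R323 (15.7%). They had medians of 28.2 CPM in EV, 5.16 in WT and 11.7 in R323, close to the 11.4 of R158, with 5.95 in R149. The other 8 were 6 genes called higher in WT (12.6%) and in R323 (14.1%), 1 lower in WT and higher in R323, and 1 called in neither. R323 had the highest mean of the 5 lines for 34 of the 45, beside 17.7% of tested genes, and WT the lowest for 21, beside 11.2%. The choice of the 45 genes by itself favours both counts.

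**Figure D3:**
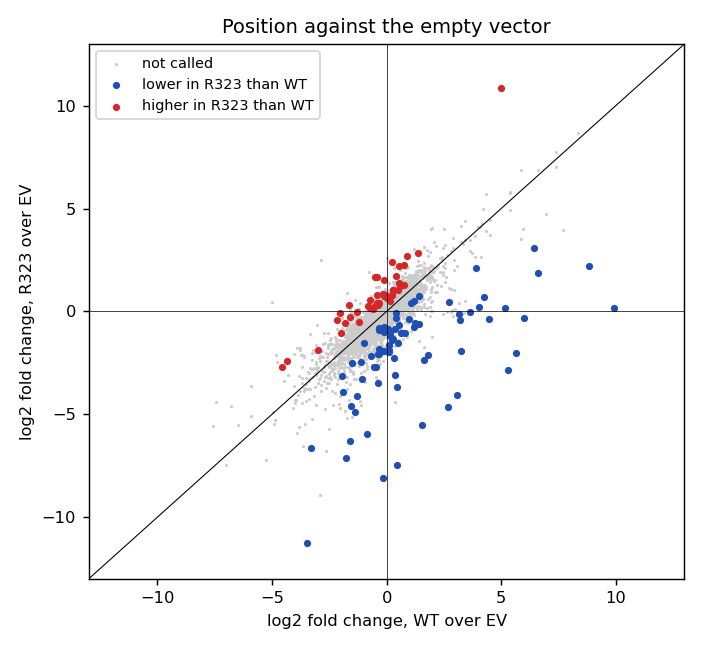
Each point is a gene, with the log2 fold change of WT over EV on the x axis and that of R323 over EV on the y axis, and the diagonal marks equal values. Genes called lower in R323 than in WT (blue) lie below the diagonal and include a row near 0 on the y axis with large values on the x axis, while genes called higher (red) lie above it.

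Whether the levels belonged to R323 in particular was tested against the other mutant lines. Of the 77 genes lower than in WT, 13 were also called lower than in R149 (0.183% of tested genes were) and 25 lower than in R158 (0.578%). One of the 77 was called higher than in R149. Of the 45 higher genes, 18 were also called higher than in R149 (0.892% of tested genes) and 14 higher than in R158 (0.358%). These contrasts share the R323 libraries. The median log2 difference of the 77 genes was -0.45 from R149 and -0.87 from R158, smaller than the -2.08 from WT for which they were chosen. For the 45 genes it was 0.71 from R149 and 0.75 from R158, beside 0.97 from WT.

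R323 differed from WT, R149 and R158 at once, in the same direction, at 18 genes (0.132% of tested genes), 10 higher and 8 lower. With the replicate number as a block there were 59, 47 higher and 12 lower, among them all 18. The count was 11 without WT replicate 2, 11 without WT replicate 3, 7 without R323 replicate 2 and 9 without R323 replicate 3. Of the 10 higher genes 3, 3, 3 and 4 stayed in these counts, and of the 8 lower genes 8, 8, 4 and 5. Without WT replicate 1 there were 22, with all 18 among them. Without R323 replicate 1 there were also 22, 15 higher and 7 lower, and only 13 of the 18 were among them. The 3 R323 libraries lay beyond all 12 others for 15 of the 18, where 1.18% of tested genes lay above and 0.731% below in this way. Calls against WT, R149 and R158 chose these genes, so separation from those lines largely follows from the choice. Against EV, 8 of the 10 higher genes were also called higher (14.1% of tested genes were). Of the 8 lower genes, 6 were also called lower than EV (15.7% of tested genes were). The contrast with EV uses the same R323 libraries, so the choice of the genes favours these calls as well. ENSRNOG00000001304, ENSRNOG00000025151 and ENSRNOG00000033220 were among the 18, and ENSRNOG00000052880 was not.

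The 2 most abundant of the 8 lower genes, singled out after their values were seen, had almost the same profile. The first stood at 343, 329 and 311 CPM in WT replicates 1, 2 and 3, and at 55.5, 99.0 and 89.9 CPM in those of R323. Across the 12 libraries of the other 4 lines it ranged only from 290 to 382 CPM. The second stood at 85.9, 78.0 and 79.9 CPM in WT and at 14.3, 22.3 and 21.0 CPM in R323, against a range of 74.1 to 95.2 CPM in the 12 other libraries. The log2 fold change over WT was -2.005 ± 0.16 (SE) for the first, with an edgeR adjusted p of 6.3e-06. For the second it was -2.08 ± 0.14 (SE), and its edgeR adjusted p of 1.9e-06 was the smallest of all tested genes. Neither differed between WT and EV by the edgeR threshold (adjusted p 0.600 and 0.660). Both were thus steady across EV and 3 MYC lines and about 4-fold lower in R323, with replicate 1 the lowest R323 library in each. Both were called against all 3 other MYC lines in 18 of 18 alternatives, as were 1 other lower gene and 2 of the 10 higher genes, ENSRNOG00000033220 among them. The other 5 lower genes were called in 12 to 16 alternatives, and ENSRNOG00000001304 in 16. The other 8 higher genes were called in 12 to 15, and ENSRNOG00000025151 in 13.

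The other lower genes of the 18 varied more between lines. The third most abundant was highest in R149, at 36.5 ± 3.93 CPM, and stood at 22.7 ± 1.08 in WT, 15.3 ± 3.92 in R158, 8.53 ± 3.58 in EV and 5.58 ± 1.10 in R323 (SD, n = 3). One gene of low level had 0.408, 0.971 and 1.15 CPM in WT and no count in any R323 library, against 9.30 ± 0.988 CPM in EV, 2.29 ± 0.319 in R149 and 2.01 ± 0.55 in R158 (SD, n = 3). Set against a floor of 3 counts over the R323 libraries, it was at least 19.4-fold lower in R323 than in WT. Another ran from 8.13 ± 2.14 CPM in EV through 2.44 ± 0.936 in WT to 0.0601 ± 0.033 in R323 (SD, n = 3). Both of these were lower than EV in all 4 MYC lines by their means, and lowest in R323.

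The 10 higher genes showed mostly modest shifts. For 6 of them the log2 fold change over WT was under 1, from 0.56 ± 0.11 to 0.86 ± 0.16 (SE). The most abundant of these stood at 53.3, 46.3 and 54.9 CPM in WT and at 66.3, 89.1 and 88.4 CPM in R323, with an edgeR adjusted p of 0.0334. The one with the smallest spread in R323 and the lowest adjusted p of the 6 stood at 46.8, 40.9 and 38.2 CPM in WT and at 66.2, 65.8 and 66.7 CPM in R323, with no overlap and an edgeR adjusted p of 0.00966. The level of that gene was 40.7 ± 5.81 CPM in EV, 34.7 ± 3.34 in R149 and 39.5 ± 2.29 in R158 (SD, n = 3). A larger rise was that of a gene at 5.36, 7.18 and 6.56 CPM in WT and 23.8, 22.0 and 21.5 CPM in R323, a log2 fold change of 1.82 ± 0.22 (SE; edgeR adjusted p 3.4e-04). A further gene was at 12.6, 11.3 and 14.4 CPM in WT and at 21.0, 35.1 and 37.6 CPM in R323, closer to the 38.4 ± 4.13 CPM of EV (SD, n = 3).

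**Figure D4:**
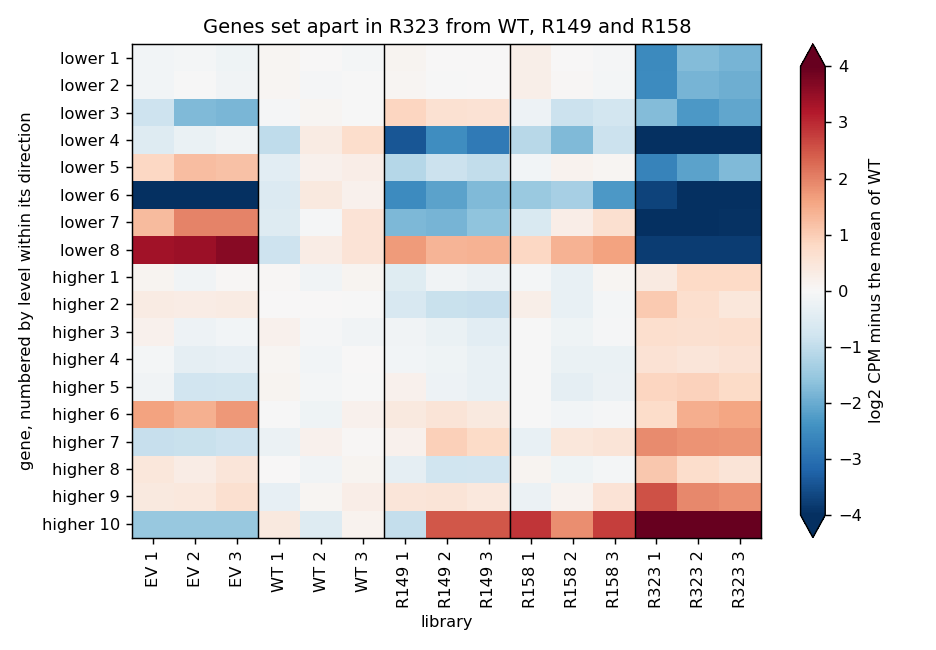
Rows are the 18 genes set apart in R323, numbered by level within the lower and the higher genes, columns are the 15 libraries, and colour is log2 CPM minus the mean of the 3 WT libraries (scale ends at -4 and 4). The first and second rows are even in every line but R323, while rows such as lower 6 and lower 8 also differ between EV and WT.

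The size of the differences was compared between libraries of equal number, whose direction is fixed by the choice of genes. The median log2 difference of the lower genes was -2.22, -2.03 and -2.28 in pairs 1, 2 and 3, and that of the higher genes 0.77, 1.13 and 1.01. Pair 1 thus had the smallest median among the higher genes and lay between the other pairs among the lower genes. In 59 of the 77 lower genes WT replicate 1 was the lowest WT library, beside 40.3% of tested genes, and its level was 0.681 times that of replicates 2 and 3 at the median. Its part in the calls was not tested beyond the count without it. With replicates 2 and 3 alone in every line, 924 genes were called, 414 higher and 510 lower, and 320 of them reached 2-fold. All 122 genes were among the 924, in the same direction.

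**Figure D5:**
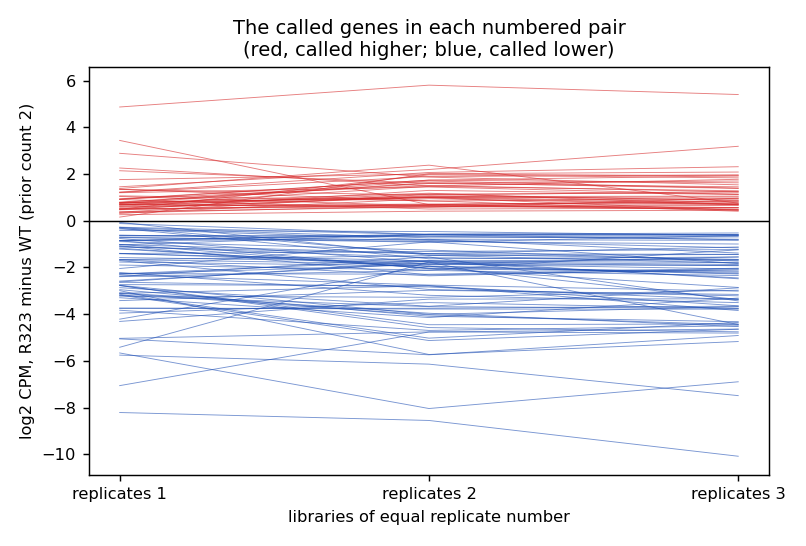
Each line joins, for 1 of the 122 called genes, the difference in log2 CPM between the R323 and WT libraries of replicate number 1, 2 and 3. Red lines, the 45 genes called higher, stay above 0 and blue lines, the 77 called lower, stay below it, which follows from how the genes were chosen.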

How the data were processed

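Stranded polyA-selected libraries from 15 cultures were used. The authors deposited raw counts, whole numbers per Ensembl gene and library with no normalization; TopHat2 2.1.0 and the build Rnor_6.0 come from the submitters' processing notes. The sources used here do not name the counting tool, strand setting or annotation, so overlapping genes and near-identical copies are uncertain.

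Counts were tested with edgeR 4.0.16 (R 4.3.3). The filter filterByExpr (minimum count 10) took out low genes, TMM factors scaled the libraries, and 1 quasi-likelihood fit held all 15 libraries with line as the only term. The replicate number was not in this fit and entered as a block only in alternatives. Each contrast was adjusted by Benjamini-Hochberg over 13676 genes, holding 99.98% of counts, and called at an adjusted p below 0.05. The SE is the log2 fold change divided by the square root of F. CPM carry TMM scaling, and log2 CPM a prior count of 2. No added standard is stated, so a fold change is relative to the rest of a library. Counting intervals are exact at 95% and cover counting error only, as does the floor of 3 counts. The biological coefficient of variation was 16.1%. The procedure was tested on simulated counts.

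Deviations of log2 CPM from the group means correlated at 0.54, 0.28 and 0.36 between R323 and WT libraries numbered 1, 2 and 3. The numbers come from the labels, and the rule for taking them as pairs was a correlation over 0.1 in each, which was met. Only 4 of the 6 libraries correlated best with the library of their own number. Deviations of a line cancel over its libraries, so a replicate 1 apart alike in both lines makes pairs 2 and 3 correlate too. The rule can thus be met by a deviation that the libraries numbered 1 share, so pairing of numbers 2 and 3 was not shown. Chi-square per degree of freedom between replicates was 4.24 to 62.2, beyond counting noise.

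Genes were to be named by the 12 largest rises and falls among called genes with at least 1 CPM over the 6 libraries, no overlap and a proper symbol; without symbols the rule gives 2 of each by identifier. The members, lists and rules were chosen with earlier results of these data known. Alternatives changed the block, the libraries, scaling, filter, depth and tool (DESeq2 1.42.0, limma-voom 3.58.1).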

Additional observations from a re-analysis of the deposited data

Results flagged for a closer look

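The effect against EV differed between R323 and WT, by the contrast of R323 with WT in the same edgeR fit, for each of the 4 genes given by identifier. On the log2 scale it differed by 5.86 for ENSRNOG00000025151, by 2.17 for ENSRNOG00000033220, by -9.76 for ENSRNOG00000052880 and by -7.91 for ENSRNOG00000001304. These are the fold changes of R323 over WT by which the 4 genes were picked, so they add no separate evidence. WT was called against EV for ENSRNOG00000052880. It was not called for ENSRNOG00000025151, ENSRNOG00000033220 or ENSRNOG00000001304 (edgeR adjusted p 0.0985, 0.191 and 0.380).

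Among the 122 genes called between R323 and WT, 5 others had calls against EV of opposite signs in the 2 lines. They are the genes of opposite calls already counted in the classes above. Their choice for a difference between R323 and WT by itself favours opposite signs. Over all tested genes, 12.6% were called higher than EV in WT and 15.7% lower than EV in R323. Of the 5 genes, 4 were higher than EV in WT and lower than EV in R323. The one with the highest level in WT stood at 5.60 ± 2.55 CPM in EV, 47.0 ± 16 in WT and 0.360 ± 0.19 in R323 (SD, n = 3), a log2 difference of -7.16. R149 and R158 stood at 0.645 and 1.09 CPM. The next by its level in WT stood at 12.7 ± 1.58, 30.3 ± 5.18 and 8.63 ± 2.06 CPM in EV, WT and R323 (SD, n = 3), a difference of -1.81. Its call in R323 against EV lay near the threshold (edgeR adjusted p 0.0464). Another, at 2.14, 7.48 and 0.492 CPM in EV, WT and R323, differed by -3.93, and the last, at 0.459, 2.78 and 0.0158 CPM, by -7.30. A single gene went the other way, from 10.6 CPM in EV to 6.41 in WT and 15.4 in R323, a difference of 1.26. Its call in R323 against EV also lay near the threshold (edgeR adjusted p 0.0354).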

How the results depend on the processing

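All 122 genes kept their direction in every alternative that tested them, and 34 were called in all 20, 10 higher and 24 lower. Genes called higher and lower numbered 144 and 179 with the replicate block, 21 and 42 with the 6 libraries of R323 and WT alone, 418 and 422 with those 6 and the block, 115 and 155 with DESeq2, and 414 and 510 with replicates 2 and 3 alone. Leaving out 1 library of R323 or WT gave 15 to 81 higher and 40 to 161 lower. Without R149 replicate 1 there were 51 higher and 107 lower. At 2-fold or more the numbers were 136 (block), 53 (6 libraries), 204 (6 libraries with the block) and 320 (replicates 2 and 3), with 52 to 157 when 1 library was left out. For genes apart from every other MYC line they were 59 (block), 46 (DESeq2) and 130 (replicates 2 and 3), with 7 to 22 when 1 library was left out. The other alternatives stayed within 1.5 times, and scaling moved the median of all genes by at most 0.01 (log2). For ENSRNOG00000052880 limma-voom gave an adjusted p of 0.0513, and the other 3 identified genes were called in 20 of 20. The block changed the call of none of these 4 genes. The causes were not tested. The median half-width of the 95% intervals was 0.92 (log2) in the least abundant quartile of genes and 0.27 in the most abundant, and the parts of depth and of spread between cultures in this were not separated.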
